A study of Mus musculus with 12 samples.

Results

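The genes described here encode integrins, laminins and other core proteins of basement membranes, 37 of the 12393 genes measured. They were chosen by gene symbol, with earlier results of these data known. The choice covered every integrin alpha or beta subunit and every laminin chain with a probe set on the array, together with Nid1, Nid2, Hspg2 and Agrn. The symbol rule took 23 integrin genes, 10 laminin chains and 4 other genes, among them Itgbl1, which encodes a secreted protein that resembles an integrin beta subunit and is not a receptor chain. Itga1, Itga10, Itga11, Itgad and Itgb8 were not analysed here.

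RNA was measured on 12 Affymetrix arrays, 3 for each of 4 groups of cultured mouse fibroblasts. All cells came from Zfp423-GFP transgenic male mice of 6 to 8 weeks on a mixed FVB and C57BL/6 background, and the labels do not say which sequence drives the transgene. Stromal vascular cells, the non-adipocyte cells of fat, were cultured from inguinal fat, which lies under the skin, or from abdominal epididymal fat, and sorted by green fluorescence. The 4 groups are therefore the GFP+ and the GFP- cells of each depot, all regrown in serum-containing DMEM/F12 and harvested while still proliferating. The series compares them to learn what distinguishes preadipocytes, marked by the transcription factor Zfp423, in each depot. Whether the 3 arrays of a group stem from different mice or cultures is not labelled, and the p-values therefore reflect no more than the array-to-array spread, which may be technical.

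Basement membranes are thin sheets of extracellular matrix that surround each fat cell and underlie epithelia, mesothelium and blood vessels. Laminins, trimers of an alpha, a beta and a gamma chain, form one network and type IV collagen another, and nidogens and the proteoglycans perlecan and agrin tie them together. Integrins are alpha-beta receptor pairs that bind these and other matrix proteins and couple them to the actin cytoskeleton through talin and kindlin. Preadipocytes remodel a fibronectin-rich matrix into a laminin-rich one as they turn into fat cells.

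Array medians lay between 347.3 and 371.2, and arrays of 1 group correlated at 0.993 to 0.995 over all genes. Zfp423 itself had a mean signal of 124 in inguinal GFP+ cells, 57.4 in inguinal GFP-, 242 in epididymal GFP+ and 29.4 in epididymal GFP- cells, so the sorted gene followed the labels in both depots. The 9 fibroblast markers were all detected, and their summed signal ran from 148300 to 158980 over the 12 arrays. That sum is mostly Col1a1, Col1a2, Col3a1 and Vim. Dcn averaged 2717 in inguinal GFP- and 16871 in epididymal GFP- cells, and Fap 1574 in epididymal GFP+ and 319 in epididymal GFP- cells. Between GFP+ and GFP- cells 5 were called in the inguinal and 7 in the epididymal depot, against 12.6% and 41.9% of all genes. Between depots 7 were called in GFP+ and 9 in GFP- cells, against 50.8% and 53.7%. In epididymal GFP- cells the summed signal of 8 mesothelial markers was 27767 to 29104, against 5884 to 6035 in epididymal GFP+ cells and 1564 to 2196 in the inguinal groups. The epididymal GFP+ sum is mostly Wt1, which averaged 3764.5 there. The inguinal sums are mostly Krt19, at 1292 in GFP+ and 1186 in GFP- cells, while Msln, Upk3b, Krt8 and Krt18 averaged at most 57.7 in either inguinal group. The summed signal of 15 macrophage and leukocyte markers was 13730 to 15981 in inguinal GFP- cells, against 6238 to 6804 in inguinal GFP+ cells and 3714 to 4230 in the epididymal groups. The inguinal GFP+ sum is mostly Cd53, which averaged 4110 there and 2160 in inguinal GFP- cells. In epididymal GFP+ and GFP- cells Cd53 averaged 905 and 208. Between these 2 groups 10 of the 15 markers were called, 2 higher and 8 lower in GFP+ cells, against 21.5% and 20.3% of all genes. Of 10 endothelial markers 7 were weakly detected. Kdr and Esam were lower and Eng, Cdh5 and Emcn higher in epididymal GFP+ than GFP- cells. The sum of the 10 was 5666 to 5871 in epididymal GFP- cells, mostly Kdr, and at most 2717 elsewhere, mostly Eng. Kdr averaged 4469 in epididymal GFP- and 552 in epididymal GFP+ cells, and Eng 196 and 1464. Of 3 Schwann cell markers 1, Mbp, was called between epididymal GFP+ and GFP- cells, with means of 626 and 4048.5. Because the arrays measure bulk RNA, fewer cells of a type and less RNA per cell cannot be told apart.

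**Figure D1:**
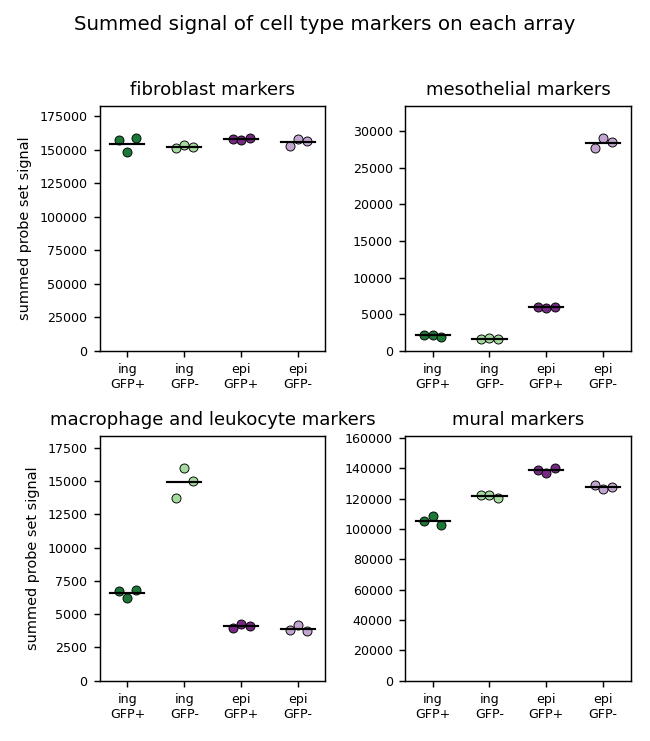
Summed signal (intensity, linear axes from 0) of the fibroblast, mesothelial, macrophage and leukocyte, and mural marker lists in the inguinal (ing) and epididymal (epi) groups; each point is 1 of the 12 arrays and the line is the group mean. Fibroblast sums are close in all groups, mural sums run from 102900 to 140370, the mesothelial sum is highest in the 3 epididymal GFP- arrays, and the macrophage and leukocyte sum is highest in the 3 inguinal GFP- arrays.

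Differences below are in log2(signal + 16), with the standard error from a limma fit across all genes and Benjamini-Hochberg adjusted p-values over all 12393 genes. Fold differences are on the same scale, and a gene was called at an adjusted p of 0.05. A GFP contrast is GFP+ minus GFP- within a depot, and a depot contrast is inguinal minus epididymal within GFP+ or GFP- cells. Each group enters several contrasts, so the epididymal GFP- arrays, for example, are shared by the epididymal GFP contrast and the depot contrast in GFP- cells. The added 16 makes differences of dim genes smaller than those of their signal. Genes in the lowest 30% of mean signal, under 77.7, are called weakly detected, which holds for 14 of the 37 genes. Signals were not compared between genes, since probe sets differ in brightness for reasons other than RNA abundance.

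More of these receptor and basement membrane genes were called between GFP+ and GFP- cells in the epididymal than in the inguinal depot, as were more genes at large, and 7 were called in opposite directions in the 2 depots. In the epididymal GFP contrast 20 of 37 were called, 9 higher and 11 lower in GFP+ cells, where 41.9% of all genes were called, 21.5% higher and 20.3% lower. Of these, 12 differed by at least 2-fold, 6 in each direction, against 6.79% of all genes, 3.61% higher and 3.18% lower. In the inguinal GFP contrast 13 were called, 5 higher and 8 lower, where 12.6% of all genes were called, 5.26% higher and 7.29% lower. At least 2-fold were 4, Lama1, Itga6 and Itgb2 lower and Itgbl1 higher, against 1.36% of all genes, 0.952% lower and 0.403% higher. The median size of the difference was 0.41 in the epididymal and 0.23 in the inguinal depot, against 0.20 and 0.10 over all genes. The 3 arrays of each side did not overlap for 23 genes in the epididymal depot and 15 in the inguinal depot, where 50% and 28.7% of all genes did not overlap.

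Of the 12 genes called in both depots, 5 had the same direction and 7 the opposite. Agrn, Itga3, Itga6 and Lama5 were lower in GFP+ cells of both depots and Itgb5 was higher in both. Itga5, Itga9 and Lama1 were lower in inguinal and higher in epididymal GFP+ cells, and Itga7, Itgbl1, Lamb1 and Nid2 were the other way round. The difference of the 2 GFP contrasts, tested itself, was called for 20 of the 37 genes, 10 in each direction, where 34.8% of all genes were called, 16.1% higher and 18.7% lower. It reached 2-fold for 12, 6 in each direction, against 7.96% of all genes, 3.43% higher and 4.53% lower.

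**Figure D2:**
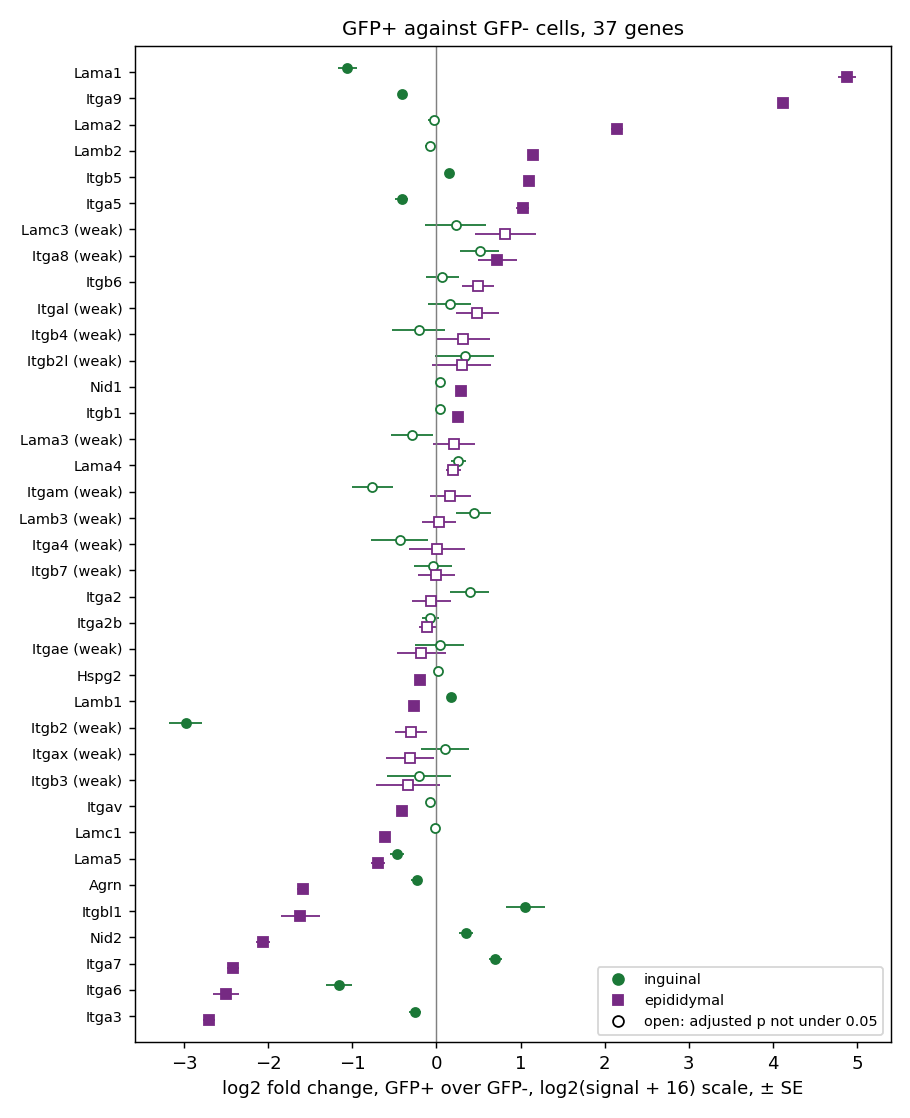
GFP+ minus GFP- difference in log2(signal + 16) for each of the 37 genes, in the inguinal and in the epididymal depot; error bars are standard errors from the limma fit and filled points are called at an adjusted p of 0.05. The largest epididymal differences are Lama1 at 4.88 and Itga9 at 4.12, both below 0 in the inguinal depot.

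Promoter sequences are shown for 5 genes, the integrins highest in all 3 epididymal GFP+ arrays (Itga9, Itga5 and Itgb5) and the receptor and laminin chain Itga3 and Lama5, which were highest in all 3 epididymal GFP- arrays. Each window runs from 250 bases before to 50 bases after a RefSeq start in GRCm38.p6, on the gene's strand, 5′ to 3′. From the RefSeq promoter table, 28 promoters of 24 of the 37 genes were counted. The positions are chr9:118711442-118711741 on the plus strand for Itga9, chr15:103366742-103367041 on the minus strand for Itga5 and chr16:33829415-33829714 on the plus strand for Itgb5. Itga3 has 2 windows, chr11:95076665-95076964 and chr11:95069149-95069448, both on the minus strand, and Lama5 has chr2:180225810-180226109 on the minus strand. Capitals mark a GC box (GGGCGG, the motif bound by Sp factors) or an AP-1 site (TGANTCA), each searched on both strands; no AP-1 match overlaps a GC box in these windows.
Itga9: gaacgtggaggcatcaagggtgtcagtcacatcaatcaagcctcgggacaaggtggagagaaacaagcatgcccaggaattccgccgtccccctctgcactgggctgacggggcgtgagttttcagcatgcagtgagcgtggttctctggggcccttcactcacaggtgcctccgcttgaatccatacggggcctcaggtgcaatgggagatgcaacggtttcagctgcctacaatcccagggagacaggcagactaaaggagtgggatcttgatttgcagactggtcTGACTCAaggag
Itga5: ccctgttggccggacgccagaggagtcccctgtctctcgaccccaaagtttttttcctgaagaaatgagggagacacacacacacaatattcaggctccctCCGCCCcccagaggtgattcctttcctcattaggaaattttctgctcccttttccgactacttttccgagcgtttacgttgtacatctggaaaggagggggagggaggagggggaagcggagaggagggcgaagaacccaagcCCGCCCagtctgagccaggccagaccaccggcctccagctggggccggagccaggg
Itgb5: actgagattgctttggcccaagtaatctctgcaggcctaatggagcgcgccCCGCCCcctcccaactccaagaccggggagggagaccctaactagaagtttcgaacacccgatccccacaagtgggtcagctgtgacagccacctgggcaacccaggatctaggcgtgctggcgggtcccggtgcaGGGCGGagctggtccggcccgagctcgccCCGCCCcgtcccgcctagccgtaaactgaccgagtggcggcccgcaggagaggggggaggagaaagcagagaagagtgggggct
Itga3, first window: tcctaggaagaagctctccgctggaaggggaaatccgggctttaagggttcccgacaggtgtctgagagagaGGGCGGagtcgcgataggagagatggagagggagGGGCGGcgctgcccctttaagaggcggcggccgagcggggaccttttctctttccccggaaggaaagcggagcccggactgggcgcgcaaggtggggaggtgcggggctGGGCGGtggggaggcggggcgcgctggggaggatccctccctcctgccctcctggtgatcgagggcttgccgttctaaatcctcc
Itga3, second window: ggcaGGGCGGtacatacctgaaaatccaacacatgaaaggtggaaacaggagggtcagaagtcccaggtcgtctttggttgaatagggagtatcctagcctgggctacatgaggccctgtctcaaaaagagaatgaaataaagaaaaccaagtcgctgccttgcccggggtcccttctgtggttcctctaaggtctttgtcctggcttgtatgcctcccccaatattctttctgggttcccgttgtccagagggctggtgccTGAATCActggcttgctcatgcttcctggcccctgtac
Lama5: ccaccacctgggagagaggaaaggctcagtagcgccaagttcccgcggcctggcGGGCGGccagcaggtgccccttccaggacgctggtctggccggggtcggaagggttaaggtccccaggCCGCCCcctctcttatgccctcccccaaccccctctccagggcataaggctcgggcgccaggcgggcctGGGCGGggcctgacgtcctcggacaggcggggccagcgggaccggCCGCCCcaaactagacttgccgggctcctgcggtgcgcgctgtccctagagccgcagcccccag

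The GC box matched 2 times in Itga5, 3 times in Itgb5, 3 times and 1 time in the Itga3 windows, 4 times in Lama5 and not in Itga9. AP-1 letters were found 1 time each in the Itga9 window and in the second Itga3 window, both after the start site. Over the 28 promoters 17 held a GC box, or 60.7%, where 35.7% of the 32851 promoters of the same length in the table did. The letters TATAAA were in none of the 28 and in 13.6% of the table, CCAAT in 5 and in 37.4%, and AP-1 in 3 and in 7.81%. Median GC content was 59.2% in these promoters and 52.7% in the table. The count for these genes left out a chromosome that the count for the table kept, so their shares follow different rules. The genes were not chosen by sequence, and a match describes letters only. Lama1, Nid2, Itga6, Itga7 and Itgb2 were among the genes without a counted promoter.

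Laminin alpha chains carry the integrin-binding domain of the trimer. Of the 37 genes Lama1 had the largest epididymal GFP difference, and the other alpha chains spread from -0.70 to 2.15. Lama1, the alpha chain of the laminin of early embryonic basement membranes, had signals of 277, 211 and 274 in the inguinal GFP+ arrays and 513, 535 and 581 in the inguinal GFP- arrays. In the epididymal depot its signals were 1982, 1773 and 2085 in the GFP+ arrays and 45.7, 49.1 and 57.2 in the GFP- arrays. No array of any group overlapped another group, and epididymal GFP+ cells were highest and epididymal GFP- cells lowest. GFP+ cells were therefore lower than GFP- cells in the inguinal depot (-1.06 ± 0.11, adjusted p = 5.89e-06) and higher in the epididymal depot, where the difference was 4.88 ± 0.11, adjusted p = 5.68e-15. Between depots Lama1 was lower in inguinal GFP+ cells (-2.87 ± 0.11, adjusted p = 7.49e-12) and higher in inguinal GFP- cells (3.07 ± 0.11, adjusted p = 8.71e-13).

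Lama2 encodes the alpha chain of the laminin of muscle and peripheral nerve, whose loss causes a muscular dystrophy. Its signals were 1438, 1396 and 1343 in the inguinal GFP+ arrays and 1418, 1473 and 1388 in the inguinal GFP- arrays. Epididymal arrays read 1462, 1261 and 1331 in the GFP+ arrays and 320, 269.9 and 288 in the GFP- arrays. The 3 epididymal GFP- arrays stood apart from the other 9, whose values overlapped. The epididymal GFP contrast was 2.15 ± 0.07, adjusted p = 2.59e-13, and the inguinal contrast was not called (-0.03 ± 0.07, adjusted p = 0.824). The depot contrast in GFP- cells was 2.23 ± 0.07, adjusted p = 9.25e-14.

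Lama5, the alpha chain of the widespread epithelial laminins, ran the other way. Lama5 signals were 553, 487 and 652 in the inguinal GFP+ arrays and 781, 769.7 and 796 in the inguinal GFP- arrays. In epididymal cells they were 1432, 1255 and 1181 in the GFP+ arrays and 2138, 2058 and 2080.2 in the GFP- arrays. The 4 groups did not overlap, with inguinal GFP+ cells lowest and epididymal GFP- cells highest. GFP+ cells were lower in both depots (-0.47 ± 0.09, adjusted p = 0.00126 inguinal, -0.70 ± 0.09, adjusted p = 4.85e-06 epididymal), and the 2 contrasts were not called different (0.23 ± 0.12, adjusted p = 0.176). That difference was called without inguinal GFP+ replicate 2 (0.32, adjusted p = 0.0223) and when its probe sets were averaged (0.75, adjusted p = 2.07e-05). A second, dimmer Lama5 probe set gave -1.87 in the epididymal GFP contrast, with the same direction. Inguinal cells were lower than epididymal cells within GFP+ (-1.18 ± 0.09, adjusted p = 1.37e-08) and within GFP- (-1.40 ± 0.09, adjusted p = 7.05e-10).

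Lama4 encodes the alpha chain found around fat cells and in vessel walls. Its mean signal was 2323 ± 399.9 in inguinal GFP+, 1919.8 ± 68.3 in inguinal GFP-, 1694 ± 58.7 in epididymal GFP+ and 1473 ± 59.6 in epididymal GFP- cells (SD, n = 3). Neither GFP contrast was called (0.26 ± 0.09, adjusted p = 0.072 inguinal, 0.20 ± 0.09, adjusted p = 0.0845 epididymal). Both outcomes depended on inguinal GFP+ replicate 2, at 1864 against 2600 and 2503 in the other 2 arrays, and on the processing. Without that array the inguinal difference was 0.41 (adjusted p = 1.81e-05). The epididymal difference, of unchanged size, then had an adjusted p of 0.00129, and the 2 contrasts differed (0.21, adjusted p = 0.0209). With all arrays kept, the mean of probe sets gave calls in both depots (0.34, adjusted p = 0.0293 inguinal, 0.26, adjusted p = 0.0347 epididymal). Median centring gave a call in the inguinal depot (0.28, adjusted p = 0.0402). Fitting only the groups compared gave a call in the epididymal depot (0.20, adjusted p = 0.00644). Inguinal cells were higher in both depot contrasts, by 0.44 ± 0.09, adjusted p = 0.000626 in GFP+ and 0.38 ± 0.09, adjusted p = 0.00168 in GFP- cells. Lama3, the alpha chain of the anchoring laminin of skin, was weakly detected, between 10.4 and 55.9 on every array. Its call in the depot contrast in GFP+ cells (-0.80 ± 0.25, adjusted p = 0.0135) did not survive dropping replicate 1 of inguinal GFP+ (-0.56, adjusted p = 0.0756) or replicate 3 of epididymal GFP+ (-0.72, adjusted p = 0.0511).

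Beta chains partner these alphas in the trimer. Lamb2, the beta chain of the synaptic, kidney and vascular laminins, had signals of 1308, 1217 and 1240.5 in the inguinal GFP+ arrays and 1307, 1307 and 1359 in the inguinal GFP- arrays. Lamb2 read 1121, 1009.9 and 1002 in the GFP+ arrays and 442, 479 and 471 in the GFP- arrays. All 3 epididymal GFP- arrays lay below every other array. GFP+ cells were higher in the epididymal depot (1.14 ± 0.06, adjusted p = 8.29e-11) and the inguinal contrast was not called (-0.08 ± 0.06, adjusted p = 0.469). Lamb2 was higher in inguinal cells within GFP+ (0.26 ± 0.06, adjusted p = 0.0011) and within GFP- (1.48 ± 0.06, adjusted p = 1.9e-12). The beta chain Lamb1, which pairs in most other laminins, showed 12290 ± 185 in inguinal GFP+, 10944 ± 276 in inguinal GFP-, 11665 ± 239.8 in epididymal GFP+ and 14055 ± 467 in epididymal GFP- cells (SD, n = 3). It was higher in GFP+ cells of the inguinal depot (0.17 ± 0.03, adjusted p = 0.00075) and lower in those of the epididymal depot (-0.27 ± 0.03, adjusted p = 9.44e-07). Its call between depots in GFP+ cells (0.08 ± 0.03, adjusted p = 0.0382) was lost without any 1 of 4 arrays, inguinal GFP+ replicates 1 and 3 and epididymal GFP+ replicates 1 and 2 (0.06 to 0.07, adjusted p from 0.0797 to 0.138).

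Lamc1, the gamma chain shared by most laminins, had a mean signal of 3303 ± 201 in inguinal GFP+, 3348 ± 48.5 in inguinal GFP-, 3823 ± 176 in epididymal GFP+ and 5850.4 ± 184 in epididymal GFP- cells (SD, n = 3). GFP+ cells were lower in the epididymal depot (-0.61 ± 0.04, adjusted p = 7.27e-09), and the inguinal contrast was not called (-0.02 ± 0.04, adjusted p = 0.843). Inguinal cells were lower within GFP- (-0.80 ± 0.04, adjusted p = 1.62e-10) and within GFP+ (-0.21 ± 0.04, adjusted p = 0.000766). The last difference turned with the choice of probe set: the mean of the Lamc1 probe sets gave 0.16 (adjusted p = 0.0348). Lamb3 and Lamc3 were weakly detected and called in no contrast, with means of at most 43.6 and 56.2 in any group. For Lamc3 the epididymal GFP contrast was 0.82 ± 0.36, adjusted p = 0.0873, and without epididymal GFP- replicate 2 it was called at 1.14 (adjusted p = 0.0267).

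Thus 3 of the 4 well-detected laminin alpha chains, both well-detected beta chains and Lamc1 were called in the epididymal GFP contrast. Lama1, Lama2 and Lamb2 were the chains higher in GFP+ cells, and Lama5, Lamb1 and Lamc1 the chains lower. The summed mesothelial markers moved with the second set, and their part in the result was not tested.

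**Figure D3:**
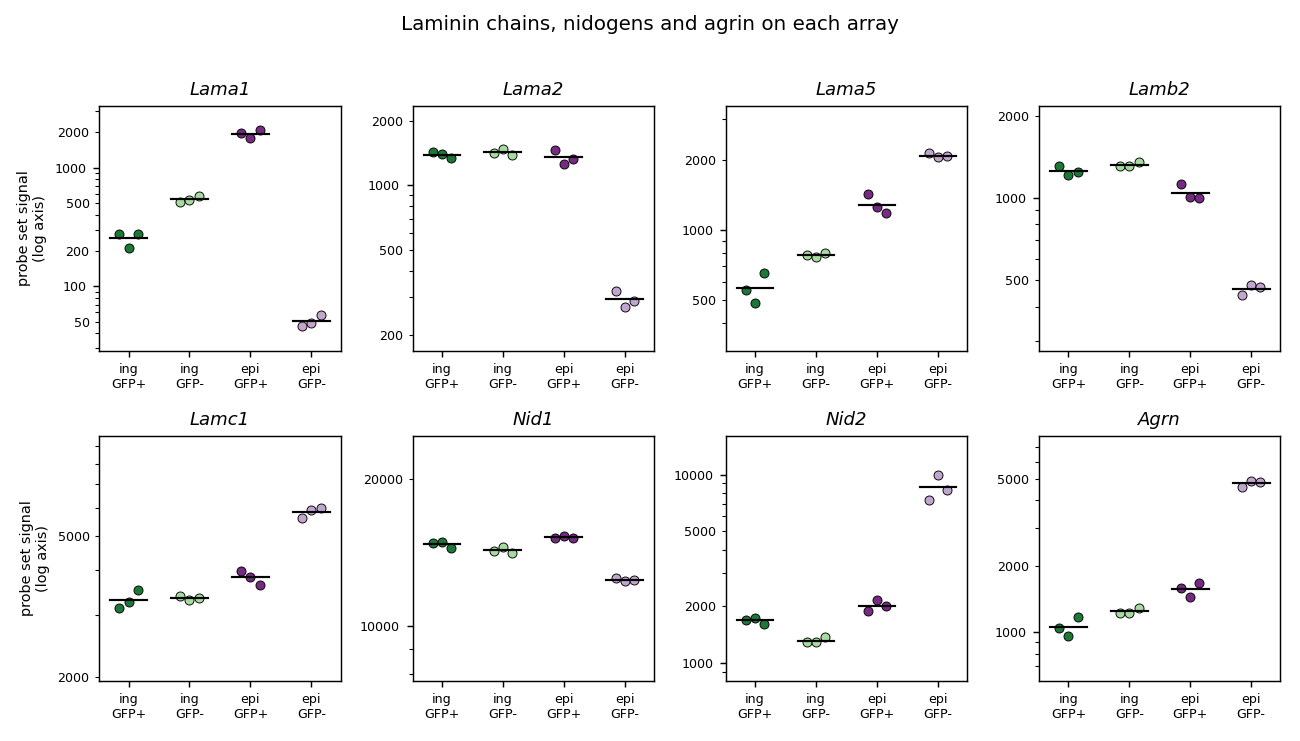
Signal (linear intensity, logarithmic axis) of Lama1, Lama2, Lama5, Lamb2, Lamc1, Nid1, Nid2 and Agrn in each of the 12 arrays; points are arrays and the short line is the group mean. Lama1 in epididymal GFP- cells stays at 45.7 to 57.2 while epididymal GFP+ arrays reach 1773 to 2085, and Nid2 and Agrn are highest in epididymal GFP- cells.

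Among the proteins that link the networks, Nid2 and Agrn differed most. Nid2 encodes nidogen 2, which joins laminin to type IV collagen, and its signals were 1705, 1737 and 1621 in the inguinal GFP+ arrays and 1293, 1295 and 1372 in the inguinal GFP- arrays. In epididymal cells Nid2 read 1887, 2176 and 2001 in the GFP+ arrays and 7374, 10004 and 8313 in the GFP- arrays. All epididymal GFP- arrays were above every other array, and all inguinal GFP- arrays below. The GFP contrast was 0.35 ± 0.08, adjusted p = 0.00774 in the inguinal and -2.07 ± 0.08, adjusted p = 4.13e-12 in the epididymal depot. Nid2 was lower in inguinal than in epididymal GFP- cells (-2.67 ± 0.08, adjusted p = 9.78e-14) and GFP+ cells (-0.26 ± 0.08, adjusted p = 0.0146), the latter not called without epididymal GFP+ replicate 2 (-0.20, adjusted p = 0.0799).

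Agrin, the product of Agrn, is a heparan sulfate proteoglycan known for clustering acetylcholine receptors at the nerve-muscle junction. Its signals were 1049, 961 and 1171 in the inguinal GFP+ arrays and 1229.9, 1223 and 1287 in the inguinal GFP- arrays. Epididymal signals were 1587, 1454 and 1684 in the GFP+ arrays and 4586, 4902 and 4820.2 in the GFP- arrays. Epididymal GFP- arrays were highest and inguinal GFP+ arrays lowest, with no overlap between groups. GFP+ cells were lower in the epididymal depot (-1.59 ± 0.06, adjusted p = 6.54e-12). In the inguinal depot the difference was -0.23 ± 0.06, adjusted p = 0.0242. That smaller call was lost with quantile normalization (-0.21, adjusted p = 0.051) and without any 1 of 5 of the 6 inguinal arrays, all but GFP+ replicate 3 (-0.25 to -0.17, adjusted p from 0.0529 to 0.102). Agrn was lower in inguinal cells within GFP+ (-0.57 ± 0.06, adjusted p = 2.24e-06) and within GFP- (-1.92 ± 0.06, adjusted p = 3.43e-13).

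Nid1, the other nidogen, and Hspg2, which encodes perlecan, changed little. Nid1 had a mean signal of 14733 ± 227 in inguinal GFP+, 14310 ± 202 in inguinal GFP-, 15221 ± 87.8 in epididymal GFP+ and 12461 ± 82.2 in epididymal GFP- cells (SD, n = 3). Its epididymal GFP contrast was 0.29 ± 0.02, adjusted p = 1.12e-08 and its inguinal one 0.04 ± 0.02, adjusted p = 0.252. Higher in inguinal GFP- cells (0.20 ± 0.02, adjusted p = 6.55e-07), it gave no call in the mean of its probe sets (0.03, adjusted p = 0.404). Hspg2 averaged 7061 ± 197 in inguinal GFP+, 6956 ± 124 in inguinal GFP-, 6687 ± 382 in epididymal GFP+ and 7630.3 ± 286 in epididymal GFP- cells (SD, n = 3). It was lower in epididymal GFP+ cells (-0.19 ± 0.04, adjusted p = 0.000797), but a second probe set went the other way and the mean of both gave no call (-0.01, adjusted p = 0.949).

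The laminin-binding integrins Itga3, Itga6 and Itga7, which pair with beta 1 and in the case of Itga6 also with beta 4, were all highest in epididymal GFP- cells. Itga3 signals were 120.0, 119 and 117 in the inguinal GFP+ arrays and 140.5, 146 and 149 in the inguinal GFP- arrays. In epididymal cells Itga3 read 451, 489.9 and 459 in the GFP+ arrays and 3029.9, 3288 and 3076 in the GFP- arrays. The groups did not overlap, and the epididymal GFP- arrays stood far above the other 9. The epididymal GFP contrast was -2.70 ± 0.07, adjusted p = 4.19e-14, a 6.52-fold difference. The depot contrasts were -1.84 ± 0.07, adjusted p = 9.07e-12 in GFP+ and -4.29 ± 0.07, adjusted p = 8.85e-17 in GFP- cells, the second 19.5-fold. In the inguinal depot the difference was small (-0.26 ± 0.07, adjusted p = 0.0277). It was lost with quantile normalization (-0.15, adjusted p = 0.216) and without any 1 of 5 arrays, inguinal GFP+ replicates 1 and 3, inguinal GFP- replicates 2 and 3 and epididymal GFP- replicate 3 (-0.26 to -0.24, adjusted p from 0.0518 to 0.085). Itga3 has 3 probe sets and the brightest was used; their mean gave -1.31 in the epididymal GFP contrast (adjusted p = 2.11e-06) and 0.16 in the inguinal one (adjusted p = 0.583), and -0.86 and -2.33 in the depot contrasts in GFP+ and GFP- cells. One dimmer Itga3 probe set was higher, not lower, in GFP+ cells, by 0.55 in the inguinal and 0.47 in the epididymal depot.

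Itga6 had signals of 175, 274 and 147 in the inguinal GFP+ arrays and 466, 436 and 448 in the inguinal GFP- arrays. Its epididymal signals were 231, 260.1 and 259 in the GFP+ arrays and 1645, 1369 and 1474 in the GFP- arrays. Epididymal GFP- arrays were above all others, and inguinal GFP+ and epididymal GFP+ arrays overlapped. GFP+ cells were lower in both depots, by -1.16 ± 0.15, adjusted p = 5.58e-05 in the inguinal and -2.50 ± 0.15, adjusted p = 9.37e-10 in the epididymal depot. The drop was the larger in the epididymal depot, with a difference between the contrasts of 1.34 ± 0.21, adjusted p = 0.000108. Inguinal GFP- cells were lower than epididymal GFP- cells (-1.70 ± 0.15, adjusted p = 7.78e-08). In GFP+ cells the depot contrast was not called (-0.35 ± 0.15, adjusted p = 0.0654). It was called without inguinal GFP+ replicate 2, at 274 against 175 and 147 (-0.59, adjusted p = 0.000135). With weakly detected genes left out it was also called (-0.35, adjusted p = 0.0462). A second, dimmer Itga6 probe set went the other way in this contrast (0.41), and the mean of both gave 0.03, not called.

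Itga7, the main laminin receptor of skeletal muscle, read 553, 506 and 507 in the inguinal GFP+ arrays and 325, 323 and 298 in the inguinal GFP- arrays. Epididymal Itga7 signals were 205, 223 and 208 in the GFP+ arrays and 1170, 1292 and 1156 in the GFP- arrays. No groups overlapped, and the order from low to high was epididymal GFP+, inguinal GFP-, inguinal GFP+ and epididymal GFP-. GFP+ cells were higher in the inguinal depot (0.70 ± 0.08, adjusted p = 8.2e-06) and lower in the epididymal depot (-2.42 ± 0.08, adjusted p = 2.78e-13). Itga7 was higher in inguinal GFP+ than epididymal GFP+ cells (1.24 ± 0.08, adjusted p = 1.84e-09) and lower in inguinal GFP- than epididymal GFP- cells (-1.88 ± 0.08, adjusted p = 3.64e-12). The 8 mesothelial markers moved with these 3 receptors in the epididymal depot: 7 of the 8 were lower in epididymal GFP+ cells, Krt19 was not called, and none was weakly detected. Upk3b averaged 599.6 in epididymal GFP+ and 9459 in epididymal GFP- cells, against 10.5 and 12.5 in the corresponding inguinal cells. The part of mesothelial RNA in the receptor differences was not tested.

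The receptor chains Itga5, Itga9 and Itgb5 were highest in all 3 epididymal GFP+ arrays, while Itgav and Itgb1, which pair with them, were highest on average in epididymal GFP- and inguinal GFP+ cells. Itga9 encodes a receptor chain for tenascin C and other ligands, and its signals were 1101, 1032 and 1124 in the inguinal GFP+ arrays and 1427, 1456 and 1453 in the inguinal GFP- arrays. In the epididymal depot Itga9 read 3489, 3452 and 3441 in the GFP+ arrays and 181, 175 and 198 in the GFP- arrays. Arrays of the 4 groups were fully separate, and epididymal GFP- cells were lowest by a wide margin. Itga9 was higher in epididymal GFP+ cells (4.12 ± 0.05, adjusted p = 1.27e-17, 17.4-fold) and lower in inguinal GFP+ cells (-0.41 ± 0.05, adjusted p = 5.38e-05). The inguinal call was lost with the mean of its 3 probe sets (-0.26, adjusted p = 0.0638), which all had the same direction in the epididymal depot. Between depots Itga9 was lower in inguinal GFP+ cells (-1.66 ± 0.05, adjusted p = 8.14e-13) and higher in inguinal GFP- cells (2.87 ± 0.05, adjusted p = 2.71e-16), the latter at 1.87 with the mean of probe sets.

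Itga5, the alpha chain of the classical fibronectin receptor, had signals of 1181, 1367 and 1019.5 in the inguinal GFP+ arrays and 1607, 1588 and 1538 in the inguinal GFP- arrays. Epididymal Itga5 signals were 2960.4, 2583 and 2696 in the GFP+ arrays and 1308, 1311 and 1396 in the GFP- arrays. Every epididymal GFP+ array was above all other arrays, while inguinal GFP+ and epididymal GFP- arrays overlapped. The GFP contrast was -0.41 ± 0.08, adjusted p = 0.00192 in the inguinal depot and 1.03 ± 0.08, adjusted p = 1.87e-08 in the epididymal depot. In GFP+ cells Itga5 was lower in the inguinal depot (-1.20 ± 0.08, adjusted p = 3.99e-09). The small excess in inguinal GFP- cells (0.24 ± 0.08, adjusted p = 0.0191) was not called without any 1 of 4 arrays, inguinal GFP- replicates 1 and 2 and epididymal GFP- replicates 1 and 2 (0.22 to 0.23, adjusted p from 0.0512 to 0.0596), or with the mean of probe sets (0.12, adjusted p = 0.167).

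Itgb5, the beta chain of a vitronectin receptor, read 8888, 8714 and 8711 in the inguinal GFP+ arrays and 7686, 8019.7 and 8088 in the inguinal GFP- arrays. Itgb5 epididymal signals were 9528, 9736 and 9539 in the GFP+ arrays and 4238, 4736 and 4463 in the GFP- arrays. Epididymal GFP+ arrays were highest and epididymal GFP- arrays lowest, with no overlap of any groups. GFP+ cells were higher in both depots, by 1.10 ± 0.03, adjusted p = 3.1e-13 in the epididymal and 0.15 ± 0.03, adjusted p = 0.0102 in the inguinal depot, the latter call being lost once replicate 1 of inguinal GFP- was dropped (0.12, adjusted p = 0.0635). Itgav, the alpha chain that pairs with beta 5, did not move with it: its mean signal was 11224 ± 417 in inguinal GFP+, 11865 ± 181 in inguinal GFP-, 11298 ± 181 in epididymal GFP+ and 15065 ± 212 in epididymal GFP- cells (SD, n = 3), lower in epididymal GFP+ cells (-0.41 ± 0.03, adjusted p = 2.92e-09). In the inguinal depot Itgav was not called (-0.08 ± 0.03, adjusted p = 0.0709), and without inguinal GFP+ replicate 2 it was, at -0.11 (adjusted p = 0.00736). Itgb1, the partner of most alpha chains named so far, averaged 10427 ± 462 in inguinal GFP+, 10136 ± 105 in inguinal GFP-, 9394 ± 543 in epididymal GFP+ and 7854 ± 287 in epididymal GFP- cells (SD, n = 3). It was higher in epididymal GFP+ cells (0.26 ± 0.04, adjusted p = 6.93e-05), a call lost with the mean of its probe sets (0.18, adjusted p = 0.164). From bright to dim these probe sets gave 0.26, 0.32, 0.31, 0.25, 0.01 and -0.08. Those at 0.01 and -0.08 had mean signals of at most 31.7 in any group.

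**Figure D4:**
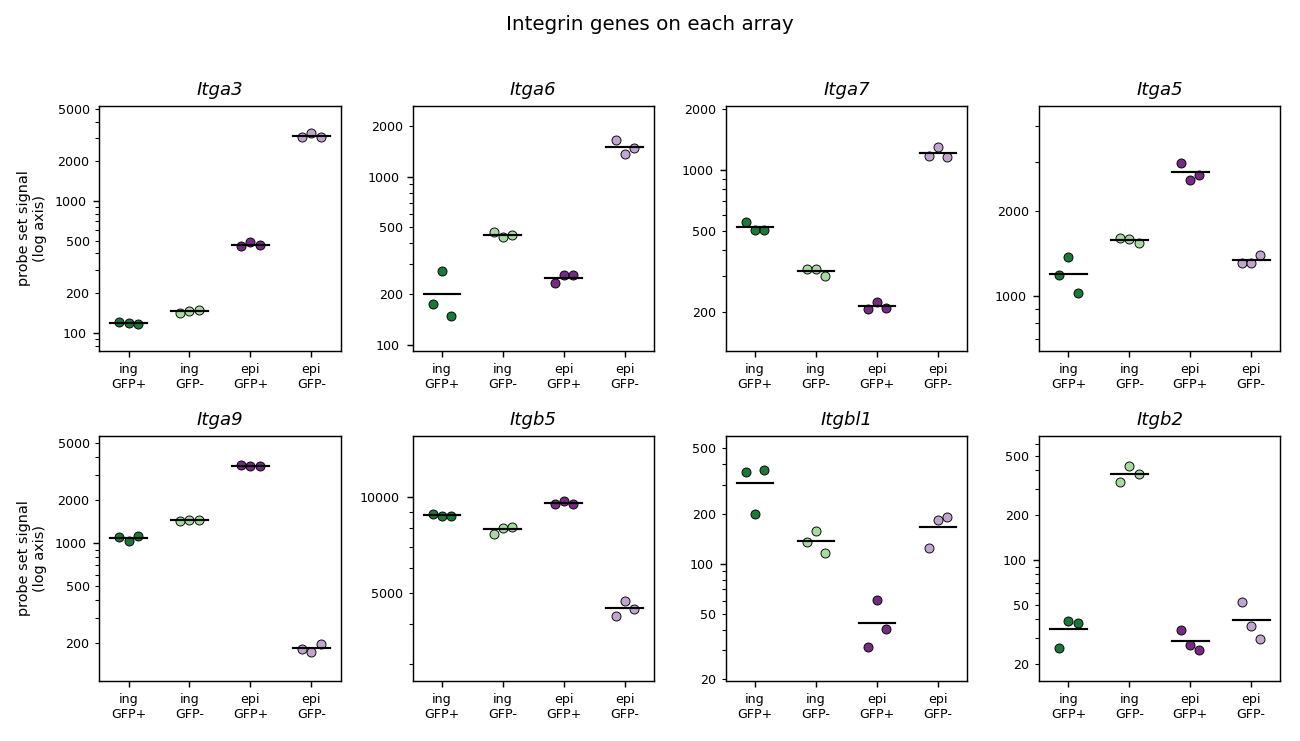
Signal (linear intensity, logarithmic axis) of Itga3, Itga6, Itga7, Itga5, Itga9, Itgb5, Itgbl1 and Itgb2 in each of the 12 arrays; points are arrays and the short line is the group mean. Itga3, Itga6 and Itga7 are highest in the 3 epididymal GFP- arrays, Itga5, Itga9 and Itgb5 in the 3 epididymal GFP+ arrays, Itgbl1 in the inguinal GFP+ arrays and Itgb2 in the inguinal GFP- arrays.

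Itgbl1, the secreted integrin beta-like protein, was the 1 gene among the 23 well-detected ones with every inguinal GFP+ array above all other groups, which held for 7.49% of the 8675 well-detected genes. Itgbl1 signals were 359, 201 and 372 in the inguinal GFP+ arrays and 135, 159 and 117 in the inguinal GFP- arrays. In the epididymal depot they were 31.3, 60.4 and 40.4 in the GFP+ arrays and 125, 185 and 193 in the GFP- arrays. Epididymal GFP+ arrays were lowest, and the GFP- groups of the depots overlapped. The GFP contrast was 1.06 ± 0.23, adjusted p = 0.006 in the inguinal and -1.62 ± 0.23, adjusted p = 2.93e-05 in the epididymal depot. GFP+ cells were higher in the inguinal depot (2.42 ± 0.23, adjusted p = 3.7e-07), and the depot contrast in GFP- cells was not called (-0.25 ± 0.23, adjusted p = 0.402).

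Leukocyte integrins pair with beta 2 or beta 7, and all but Itgb2 were near the floor of the arrays. Itgb2, which pairs with the alpha chains Itgal, Itgam and Itgax on white blood cells, had signals of 25.6, 39.05 and 37.9 in the inguinal GFP+ arrays and 332, 425 and 379 in the inguinal GFP- arrays. Epididymal Itgb2 signals were 33.6, 26.8 and 24.7 in the GFP+ arrays and 52.5, 36.2 and 29.3 in the GFP- arrays. The 3 inguinal GFP- arrays were far above the other 9, which lay at or below 52.5 and overlapped among themselves. Itgb2 was lower in inguinal GFP+ than GFP- cells (-2.98 ± 0.19, adjusted p = 3.42e-08, 7.89-fold), and not called in the epididymal depot (-0.30 ± 0.19, adjusted p = 0.244). It was higher in inguinal than epididymal GFP- cells (2.85 ± 0.19, adjusted p = 2.71e-09), and not called between GFP+ cells (0.17 ± 0.19, adjusted p = 0.498). Itgam, the alpha chain of the macrophage complement receptor, averaged 10.8 ± 5.05 in inguinal GFP+, 29.7 ± 10.96 in inguinal GFP-, 12.04 ± 1.73 in epididymal GFP+ and 9.16 ± 3.86 in epididymal GFP- cells (SD, n = 3), highest in inguinal GFP- cells and just outside the threshold in the inguinal GFP contrast (-0.76 ± 0.24, adjusted p = 0.0507). Between depots it was higher in inguinal GFP- cells (0.85 ± 0.24, adjusted p = 0.00715), at 0.35 to 1.62 with pseudocounts of 64 and 1. In the inguinal GFP contrast, dropping inguinal GFP+ replicate 2 made it called (-0.91, adjusted p = 0.0321), as did dropping replicate 1 of inguinal GFP- (-0.91, adjusted p = 0.0429).

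With Itgb2, 12 of the 15 macrophage and leukocyte markers were lower in inguinal GFP+ cells, 11 of them by at least 2-fold, and Cd53 was higher. The pan-leukocyte gene Ptprc averaged 251 in the GFP- and 9.31 in the GFP+ cells of this depot, and the complement gene C1qa 808 and 12.3. Fermt3, the kindlin of blood cells that activates integrins, followed the same order, with a mean of 318 against 87.1 (-1.70 ± 0.18, adjusted p = 5.13e-06). The part of leukocyte RNA in the Itgb2 difference was not tested.

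For scale, 31 olfactory receptor genes, which fibroblasts are not known to use had group medians of 20.5 to 22.8. Of the 14 weakly detected genes, 5 were called in a pairwise contrast: Itgb2, Itgam, Itga8, Itgal and Lama3. Itga8, the alpha chain of the nephronectin receptor, averaged 66.8 ± 14.4 in inguinal GFP+, 42.7 ± 15.3 in inguinal GFP-, 82.4 ± 24.9 in epididymal GFP+ and 42.7 ± 7.55 in epididymal GFP- cells (SD, n = 3). Its epididymal GFP contrast (0.72 ± 0.23, adjusted p = 0.0193) was lost without epididymal GFP+ replicate 3 (0.53, adjusted p = 0.108) and without epididymal GFP- replicate 2 (0.64, adjusted p = 0.0722). Itgal was called in the depot contrast in GFP+ cells (-0.75 ± 0.26, adjusted p = 0.0246), but the call was lost on dropping replicate 3 of inguinal GFP+ (-0.55, adjusted p = 0.116) or replicate 2 of epididymal GFP+ (-0.57, adjusted p = 0.117). The collagen receptor chain Itga2, outside the weak group, averaged 102 ± 15.5 in inguinal GFP+, 76.7 ± 29.6 in inguinal GFP-, 133 ± 31.5 in epididymal GFP+ and 138 ± 19.8 in epididymal GFP- cells (SD, n = 3) and was lower in inguinal GFP- than epididymal GFP- cells (-0.78 ± 0.23, adjusted p = 0.00854), a call lost without inguinal GFP- replicate 1 (-0.48, adjusted p = 0.0533). Itga2b, Itga4, Itgae, Itgax, Itgb2l, Itgb3, Itgb4, Itgb6, Itgb7, Lamb3 and Lamc3 were called in no contrast. Of these, Itga4 was called between depots in GFP+ cells without inguinal GFP+ replicate 1 (-0.76, adjusted p = 0.0348). For Itgb6, the epididymal GFP contrast (0.49 ± 0.19, adjusted p = 0.0539) became a call when replicate 3 of inguinal GFP+ was dropped (0.49, adjusted p = 0.0444), or replicate 2 or 3 of epididymal GFP- (0.63 and 0.60, adjusted p = 0.0286 and 0.0397).

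Between depots, 17 of the 37 genes were called in GFP+ cells, 6 higher and 11 lower in the inguinal depot, where 50.8% of all genes were called, 23.6% higher and 27.2% lower. In GFP- cells 22 were called, 11 in each direction, where 53.7% of all genes were called, 27.4% higher and 26.3% lower. Both shares, 45.9% and 59.5%, are near those of all genes. The median size of the difference was 0.26 in GFP+ and 0.37 in GFP- cells, against 0.25 and 0.28 over all genes. Differences of at least 2-fold numbered 7 in GFP+ cells, 2 higher and 5 lower, against 5.77% of all genes, 1.69% higher and 4.08% lower. In GFP- cells they numbered 11, 5 higher and 6 lower, against 10.4% of all genes, 4.95% higher and 5.41% lower. The arrays of the 2 depots did not overlap for 17 genes in GFP+ and 25 in GFP- cells, where 56% and 61.1% of all genes did not overlap. Of the 14 genes called in both, 8 had the same direction. Itgb1, Lama4 and Lamb2 were higher in inguinal cells of both kinds, though with the mean of probe sets Itgb1 was called in neither (0.03, adjusted p = 0.838, and 0.19, adjusted p = 0.11). In both kinds Agrn, Itga3, Lama5, Lamc1 and Nid2 were lower. The other 6, Itga5, Itga7, Itga9, Itgb5, Lama1 and Lamb1, had opposite directions. Of these 6, all but Itga7 and Lamb1 were lower in inguinal GFP+ and higher in inguinal GFP- cells. All 8 mesothelial markers were called in both depot contrasts, 6 lower and 2 higher in inguinal GFP+ cells, 7 lower and 1 higher in inguinal GFP- cells. Of the 15 macrophage and leukocyte markers 12 were higher and 1 lower in inguinal GFP- cells, and 1 was higher and 7 lower in inguinal GFP+ cells. The part of these markers' cells in the depot differences was not tested.

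**Figure D5:**
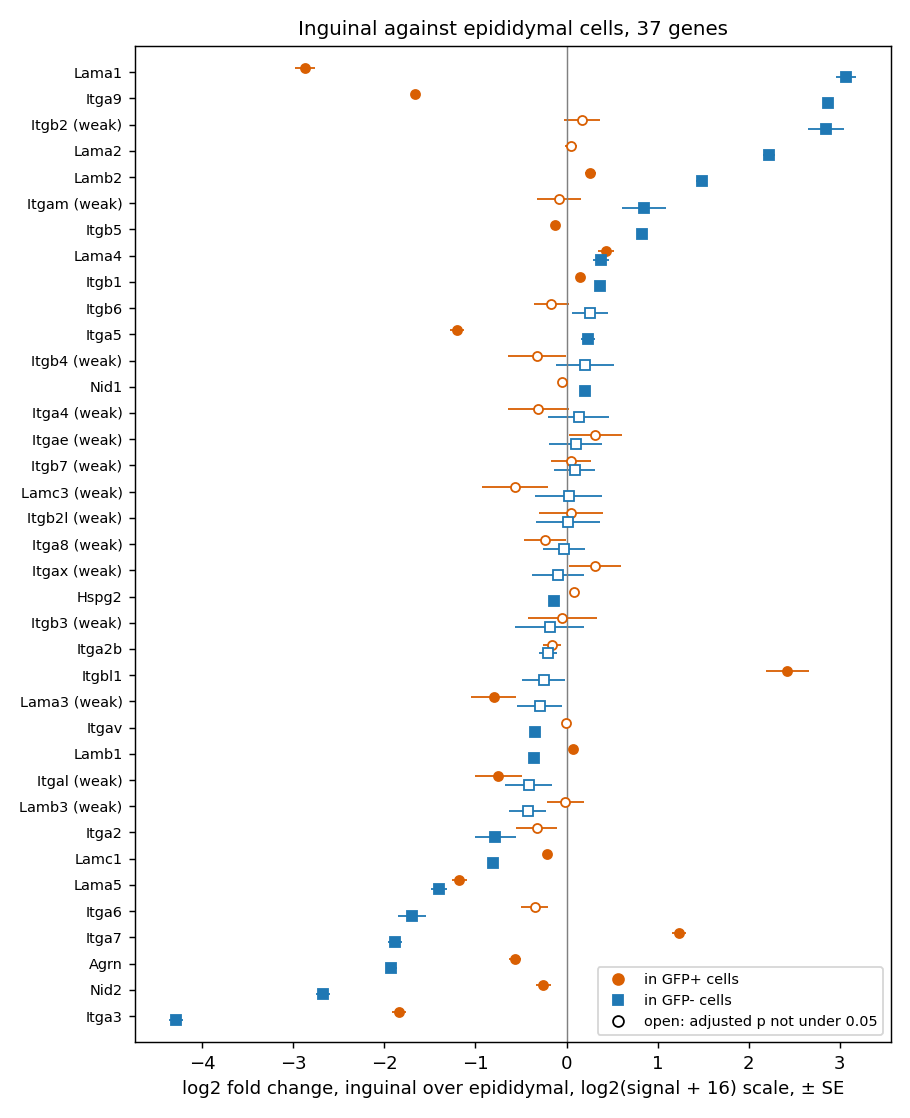
Inguinal minus epididymal difference in log2(signal + 16) for each of the 37 genes, in GFP+ and in GFP- cells; error bars are standard errors from the limma fit and filled points are called at an adjusted p of 0.05. Itga3 has the lowest value in GFP- cells, -4.29, and Lama1 the highest, 3.07.

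Counting by group, epididymal GFP- cells stood apart for most of these genes. Among the 23 well-detected ones, every epididymal GFP- array was above all other arrays for 10 genes, Agrn, Hspg2, Itga3, Itga6, Itga7, Itgav, Lama5, Lamb1, Lamc1 and Nid2, where 19.3% of the 8675 well-detected genes did so. Every epididymal GFP- array was below all others for 8, Itga9, Itgb1, Itgb5, Lama1, Lama2, Lama4, Lamb2 and Nid1, against 21.6%. These counts rest on the brightest probe set of each gene. Some of the other probe sets of Hspg2, Itga3, Itgb1 and Nid1 placed epididymal GFP- cells differently in their group means. Epididymal GFP+ cells were highest for Itga5, Itga9, Itgb5, Lama1 and Nid1 (11% of well-detected genes) and lowest for Itga7 and Itgbl1 (10.2%). Inguinal GFP+ cells were lowest for Agrn, Itga3 and Lama5 (8.36%) and inguinal GFP- cells for Lamb1 and Nid2 (3.45%).

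For the further gene groups, the shares of all genes called stand for comparison: 5.26% higher and 7.29% lower in the inguinal GFP contrast, 21.5% and 20.3% in the epididymal one, 23.6% and 27.2% between depots in GFP+ cells and 27.4% and 26.3% in GFP- cells. Of 10 collagens of the basement membrane, 5 were lower, 5 not called and none higher in inguinal GFP+ cells. In the epididymal depot 1 was higher and 5 lower in GFP+ cells. Col15a1, a basement membrane collagen of muscle and vessels, averaged 776 in inguinal GFP+, 1909.5 in inguinal GFP-, 1036 in epididymal GFP+ and 102 in epididymal GFP- cells. Its GFP contrast was -1.29 ± 0.09 in the inguinal depot (adjusted p = 6.98e-08) and 3.16 ± 0.09 in the epididymal depot (adjusted p = 8.37e-14), the same pair of directions as Lama1. The type IV chains Col4a5 and Col4a6 were lower in epididymal GFP+ cells (-0.79, adjusted p = 1.6e-11, and -1.82, adjusted p = 6.88e-09), and Col4a1, a chain of the common network, was lower in GFP+ cells of both depots (-0.21 inguinal, adjusted p = 0.000109, and -0.23 epididymal, adjusted p = 7.47e-06). Between depots 1 was higher and 3 lower in inguinal GFP+ cells, and 4 higher and 2 lower in inguinal GFP- cells.

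Of 11 other basement membrane components and modifiers measured, 1 was higher and 5 lower in inguinal GFP+ cells, and 5 were higher and 2 lower in epididymal GFP+ cells. The calcium-binding matrix protein gene Smoc1 was lower in inguinal (-1.55, adjusted p = 2.13e-08) and higher in epididymal GFP+ cells (1.16, adjusted p = 4.89e-08). Npnt, encoding nephronectin, the ligand of the Itga8 receptor, was also lower in inguinal (-1.07, adjusted p = 1.49e-05) and higher in epididymal GFP+ cells (1.36, adjusted p = 1.3e-07), and the laminin-binding netrin Ntn4 was higher in epididymal GFP+ cells (1.41, adjusted p = 2.59e-08). Between depots 4 were higher and 5 lower in inguinal GFP+, and 6 higher and 2 lower in inguinal GFP- cells. Among 15 matrix receptors that are not integrins, 1 was higher and 4 lower in inguinal GFP+, and 5 were higher and 5 lower in epididymal GFP+ cells. Dag1, which encodes the laminin receptor dystroglycan, was lower in epididymal GFP+ cells (-0.50, adjusted p = 1.27e-10). Between depots 3 were higher and 6 lower in inguinal GFP+, and 8 higher and 5 lower in inguinal GFP- cells.

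Integrin ligands outside basement membranes gave 5 higher and none lower of 18 in inguinal GFP+ cells, and 6 higher and 6 lower in epididymal GFP+ cells. Postn, encoding periostin, was 2.35 higher in epididymal GFP+ cells (adjusted p = 4.55e-17). Tnc, encoding the Itga9 ligand tenascin C, was higher in GFP+ cells of both depots (0.29 inguinal, adjusted p = 0.000376, and 0.65 epididymal, adjusted p = 5.56e-09), whereas Itga9 was higher in those of the epididymal depot and lower in those of the inguinal depot. Between depots 8 were higher and 5 lower in inguinal GFP+, and 9 higher and 4 lower in inguinal GFP- cells. Of 24 integrin adaptor and signalling genes, 15 were lower and none higher in inguinal GFP+ cells, where 7.29% of all genes were lower, and 9 were higher and 5 lower in epididymal GFP+ cells. Ptk2b, a focal adhesion kinase relative, was lower in GFP+ cells of both depots (-0.52 inguinal, adjusted p = 2.95e-05, and -1.37 epididymal, adjusted p = 3.53e-11), as was the adhesion protein gene Zyx (-0.22 inguinal, adjusted p = 0.00046, and -0.29 epididymal, adjusted p = 3.79e-06). Fermt2, the kindlin of most adherent cells, was higher in epididymal GFP+ cells (0.28, adjusted p = 7.75e-08). Between depots 3 were higher and 18 lower in inguinal GFP+, and 6 higher and 15 lower in inguinal GFP- cells, where 27.2% and 26.3% of all genes were lower. Of the 10 mural markers, genes of smooth muscle cells and pericytes, 6 were lower and 1 higher in inguinal GFP+ than GFP- cells, among the lower ones Mcam (-1.36, adjusted p = 1.25e-08) and Myh11 (-0.99, adjusted p = 1.84e-10). Mural markers were 5 higher and 3 lower in epididymal GFP+ cells, 1 higher and 7 lower in inguinal GFP+ and 5 higher and 3 lower in inguinal GFP- cells between depots. The part of mural cells in the adaptor counts was not tested.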

How the data were processed

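The authors deposited 1 linear intensity per probe set and array in the value table of the series. The authors' signal algorithm, scaling and software are not given in the sources used here. Per the labels' protocols Trizol and RNeasy columns were used for the RNA, which was labelled as biotinylated cRNA. Of 22626 probe sets, the 20380 that the platform annotation pairs with 1 gene symbol were used; 691 have several symbols and 1555 none. The RefSeq gene table served to update symbols, except for 24 without a match.

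Analyses used log2(intensity + 16). A gene was represented by its probe set of highest mean. Samples were grouped by their labels. No further normalization was applied, since array medians differed by at most 0.0919 (log2). One limma fit (version 3.58.1, R 4.3.3; lmFit, then eBayes with a trend) over all 12 arrays gave every contrast, adjusted by Benjamini-Hochberg over 12393 genes at 0.05; the step was tested on simulated data. No control spots were listed. The number of arrays limits the precision.

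The members and gene lists were chosen with earlier results of these data known. Signals on every array are given for members called in a pairwise contrast at 2-fold or more. From each other list the rule allowed up to 4 called genes with the smallest adjusted p and up to 2 uncalled genes per contrast, and the text names part of these, chosen after their values were seen. Alternatives were quantile normalization, median centring, pseudocounts of 1 and 64, no weakly detected genes and the mean of probe sets. Further runs used only the groups compared, took the replicate number as a block, or left out each array in turn. Promoters came from RefSeq (GRCm38.p6).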

Additional observations from a re-analysis of the deposited data

Results flagged for a closer look

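The GFP contrasts of the 2 depots differed, by the interaction test of the limma fit (adjusted p at most 0.05), for 20 of the 37 genes, where 34.8% of all genes did. Values are the inguinal minus the epididymal GFP contrast in log2(signal + 16). Among laminin-binding integrins the difference was 2.45 for Itga3, 1.34 for Itga6 and 3.12 for Itga7, with GFP+ cells lower by more in the epididymal than in the inguinal depot for Itga3 and Itga6 and higher in the inguinal depot for Itga7. Among other alpha chains it was -1.44 for Itga5, -4.53 for Itga9 and 0.33 for Itgav. Beta chains gave -0.22 for Itgb1, -0.95 for Itgb5 and -2.68 for Itgb2, and Itgbl1 gave 2.67. Itgam, near the floor of the arrays, gave -0.93 (adjusted p = 0.0456), a call lost without any 1 of 10 arrays, all but inguinal GFP+ replicate 2 and inguinal GFP- replicate 1 (adjusted p from 0.0528 to 0.124). Laminin chains gave -5.94 for Lama1, -2.18 for Lama2, 0.44 for Lamb1, -1.22 for Lamb2 and 0.59 for Lamc1. The linking proteins gave -0.25 for Nid1, 2.42 for Nid2, 0.21 for Hspg2 and 1.36 for Agrn. The mean of probe sets gave no call for Hspg2 (0.02, adjusted p = 0.875) or Itgb1 (-0.16, adjusted p = 0.417).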

How the results depend on the processing

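Over 37 genes and 5 contrasts, 72 of the 92 calls were kept under every alternative run, and 20 were lost or turned under at least 1. Of the 93 pairs not called, 13 were called under at least 1. Under the mean of probe sets 3 differences turned: Itga3 in the inguinal GFP contrast (0.16, adjusted p = 0.583), Lamc1 in the depot contrast in GFP+ cells (0.16, adjusted p = 0.0348) and Hspg2 in the same contrast (-0.23, adjusted p = 0.00119, against 0.08 with the brightest probe set). Probe sets of these genes disagree, and the cause was not tested. The count of called members stayed within 1.5 times its value under every alternative. Leaving out each array in turn gave 11 to 15 in the inguinal GFP contrast, 19 to 21 in the epididymal GFP contrast, 19 to 22 for their difference, and 14 to 18 and 20 to 22 in the depot contrasts in GFP+ and GFP- cells. With a replicate block the counts were 13, 21, 20, 16 and 22 in that order. The block lost the call of Lamb1 between depots in GFP+ cells (0.08, adjusted p = 0.0537) and is not part of the main design, since arrays that share only a replicate number did not deviate together: their deviations from the group means correlated at -0.0572 to 0.0442 over 18 pairs. Median centring and quantile normalization moved the median gene by at most 0.0554 (log2). Differences of the weakly detected genes lie near the floor of the arrays and depend on the pseudocount.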
